A study of Mus musculus with 9 samples.

Results

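The genes described here encode 8 liver enzymes, 4 that break down histidine (Hal, Uroc1, Amdhd1 and Ftcd) and 4 that break down tyrosine (Tat, Hpd, Hgd and Fah). They were chosen by gene name from the 19686 genes of the count table, as the members of both pathways, because the level of Amdhd1 was known to be higher in both fructose groups than in the control group. All 8 were found, each under 1 identifier, and all 8 passed the filter on low counts in every comparison. The values of Amdhd1 against the control group are therefore given as a description, with no test. The rule names no level of the other 7 genes.

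Hepatic RNA of male Wistar rats was sequenced in 9 libraries, 3 in each of 3 groups. The control group drank purified water and received saline by gavage, the model group drank 15% fructose and received saline, and the HME group drank 15% fructose and received 1.8 g/kg of the 50% methanol extract of Danggui-Shaoyao-San (DSS), a herbal formula. Treatment lasted 8 weeks, the rats were fasted for 12 h before the liver was taken, and the model is a dietary one without a genetic change. The labels call the treated group DSS and name the mouse as the organism, whereas the strain is given as Wistar rat and the identifiers of the genes belong to the rat. Neither the age of the rats nor whether each library came from a single rat was given in the sources used here, so the p-values measure the spread between these samples, which may be in part technical.

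Histidine breakdown runs in 4 steps in the hepatocyte. Hal (histidine ammonia lyase) removes ammonia to give urocanate, Uroc1 (urocanate hydratase) converts it to imidazolonepropionate, Amdhd1 (imidazolonepropionase) opens the ring to give formiminoglutamate, and Ftcd passes the formimino group to tetrahydrofolate and leaves glutamate. Tyrosine is first transaminated by Tat, an enzyme known for its induction by glucocorticoids and glucagon. Hpd then makes homogentisate, Hgd opens its ring, Gstz1 isomerizes the product, and Fah splits it into fumarate and acetoacetate. Inherited loss of Hal causes histidinaemia, loss of Hgd causes alkaptonuria, and loss of Fah or Tat causes forms of tyrosinaemia.

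Total counts ranged from 14345819 to 26837227 per library, and the 8 genes made up 0.329% to 0.423% of them. Levels are given as CPM, counts scaled to the TMM-normalized library size. The pairs of samples within a group differed by a mean chi-square per gene of 18.8 to 69.5, so no replicate was a second copy of another. Model replicate 1 stood apart on the second principal component (-59.5, with the other samples between -16.7 and 20.2). The 7 hepatocyte markers summed to 134920 to 172461 CPM in control samples and 171651 to 218309 CPM in model samples. In HME samples they summed to 167654 to 211060 CPM. These ranges overlap, those of control and model samples only narrowly. Most of the sum came from Alb and Tf, with control means of 101435 and 30821 CPM. The control and model means were 641 and 483 CPM for Hnf4a and 4081 and 2421 CPM for Cps1. The means of Alb, Apoa1, Ttr, Tf and Serpina1 were higher in model than in control samples. The summed markers of Kupffer cells and leukocytes, endothelial cells, stellate cells, bile duct cells and red blood cells overlapped between the 3 groups, and the pancreas markers, nearly all from Cela1, summed to 13.1 to 16.3 CPM in control samples, 18.5 to 28 CPM in model samples and 16.1 to 26.4 CPM in HME samples. Of all these markers 1 reached an FDR of 0.05 at a log2 fold change beyond 0.5 in either direction. It was the hepatocyte marker Apoa1 for HME against control (0.81, FDR 0.0205 from edgeR), where 6.36% of all genes met both limits. The part of these markers in the values of the 8 genes was not tested. In bulk liver RNA, fewer cells of a type and less RNA per cell cannot be told apart.

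Amdhd1 (ENSRNOG00000005266) had, of the 8 genes, the widest gap between the fructose groups and the control group. It was at 24.6, 36.2 and 24.0 CPM in the control samples (28.3 ± 6.88, SD, n = 3), from counts of 614, 606 and 360. In the model samples it was at 134, 141 and 130 CPM (135 ± 5.82, n = 3). In the HME samples it was at 194, 135 and 142 CPM (157 ± 31.9, n = 3). Every fructose-group sample was above every control sample, and the lowest of them, at 130 CPM, was far above the highest control sample, at 36.2 CPM. The fitted level was 4.77-fold the control level in model samples (log2 fold change 2.26, standard error 0.184) and 5.54-fold in HME samples (log2 fold change 2.47, standard error 0.205). By the size of its log2 fold change it ranked 68 of 12486 genes in the model group and 66 of 12633 in the HME group. Both contrasts use the same 3 control samples.

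Between the HME and model groups, a contrast that played no part in the choice of the genes, the Amdhd1 levels overlapped. The log2 fold change was 0.22 (95% interval -0.15 to 0.60, FDR 0.826 from edgeR's quasi-likelihood test). The interval includes no difference and a rise of 0.60, and it leaves out any fall larger than 0.15 on the log2 scale. Without HME replicate 1, the highest sample, the log2 fold change was 0.04.

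**Figure D1:**
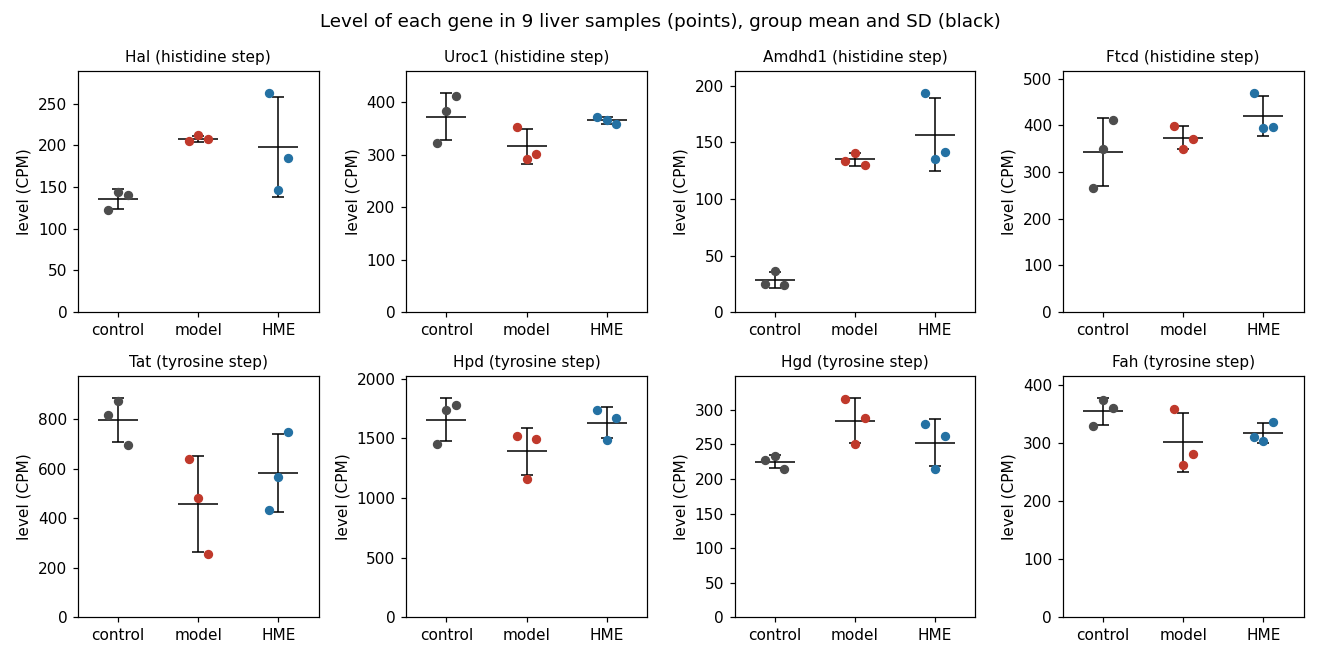
Level in CPM of the 8 genes in each of the 9 samples, by group (points, 3 per group), with the group mean and SD in black. The 6 fructose-group samples lay between 130 and 194 CPM for Amdhd1 and the control samples between 24.0 and 36.2 CPM, while the 3 groups overlap in the panels of Ftcd, Hpd and Fah.

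Hal (ENSRNOG00000004502), the entry step of histidine breakdown, was also higher in the fructose groups, but by less. It was at 122, 144 and 141 CPM in the control samples (136 ± 12.1, n = 3), 205, 212 and 207 CPM in the model samples (208 ± 3.78, n = 3) and 263, 146 and 185 CPM in the HME samples (198 ± 59.3, n = 3). No model or HME sample was as low as a control sample, although HME replicate 2, at 146 CPM, was almost level with the highest control sample, at 144 CPM. The log2 fold change in the model group was 0.62 (95% interval 0.32 to 0.91, FDR 0.0959 from edgeR), so Hal did not pass the FDR threshold of 0.01. DESeq2 on the same genes gave the same log2 fold change at an FDR of 0.00219, which passes both thresholds. In the HME group it was 0.54 against control (95% interval 0.09 to 1, FDR 0.14 from edgeR). This value was 0.29 without HME replicate 1, the highest sample, and lay between 0.29 and 0.73 with single samples left out, at an FDR of 0.045 to 0.344. Against the model group it was -0.06 (95% interval -0.54 to 0.42, FDR 0.962 from edgeR).

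Uroc1 (ENSRNOG00000043404), the step between Hal and Amdhd1, had means in the fructose groups at or below the control mean. It was at 323, 384 and 412 CPM in the control samples (373 ± 45.5, n = 3), 354, 293 and 301 CPM in the model samples (316 ± 32.9, n = 3) and 373, 366 and 359 CPM in the HME samples (366 ± 7.01, n = 3). The model and control samples overlapped, and the log2 fold change was -0.24 (95% interval -0.60 to 0.12, FDR 0.559 from edgeR). Each HME sample exceeded each model sample, by a log2 fold change of 0.22 (95% interval -0.10 to 0.53, FDR 0.791 from edgeR), and they lay within the range of the control samples.

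Ftcd (ENSRNOG00000001261), the last step, was at 266, 350 and 412 CPM in the control samples (342 ± 73.3, n = 3), 399, 350 and 371 CPM in the model samples (373 ± 24.8, n = 3) and 470, 395 and 397 CPM in the HME samples (421 ± 42.9, n = 3). All groups overlapped. Its log2 fold change was 0.12 for model against control (95% interval -0.29 to 0.54, FDR 0.81 from edgeR) and 0.29 for HME against control (95% interval -0.09 to 0.67, FDR 0.324 from edgeR). Both intervals include no difference.

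Of the tyrosine genes, Tat (ENSRNOG00000016348) had the largest difference from the control group and the widest spread between samples. It was at 817, 874 and 698 CPM in the control samples (796 ± 89.9, n = 3), 641, 483 and 255 CPM in the model samples (460 ± 194, n = 3) and 433, 565 and 749 CPM in the HME samples (582 ± 158, n = 3). Every model sample was below every control sample, and the HME samples overlapped both other groups. The log2 fold change was -0.79 for model against control (95% interval -1.49 to -0.09, FDR 0.318 from edgeR) and -0.45 for HME against control (95% interval -0.90 to -0.01, FDR 0.197). Against the model group the HME value was 0.35 (95% interval -0.43 to 1.12, FDR 0.863 from edgeR). The value in the model group rested in part on model replicate 3, the lowest sample, and with 1 sample left out at a time it lay between -1.13 and -0.50, the latter without model replicate 3. The value for HME against control was -0.28 without HME replicate 1 and -0.67 without HME replicate 3, its lowest and highest sample. For HME against model it lay between 0.06 (without model replicate 3) and 0.67 (without model replicate 1). The spread of Tat within groups, an SD of 0.46 on the log2 scale, was larger than that of 93.8% of the 2138 genes with a mean count of at least 1000, for which the median was 0.19.

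Hpd (ENSRNOG00000001338), the dioxygenase that makes homogentisate, was at 1450, 1740 and 1782 CPM in the control samples (1657 ± 181, n = 3), 1517, 1163 and 1491 CPM in the model samples (1390 ± 198, n = 3) and 1740, 1483 and 1673 CPM in the HME samples (1632 ± 133, n = 3). The 3 groups overlapped, with log2 fold changes of -0.25 for model against control (95% interval -0.65 to 0.15) and -0.03 for HME against control (95% interval -0.33 to 0.28). Hgd (ENSRNOG00000002701), the homogentisate dioxygenase, lay on the other side of the control level in model samples. It was at 227, 233 and 215 CPM in the control samples (225 ± 9.43, n = 3), 315, 250 and 288 CPM in the model samples (284 ± 32.5, n = 3) and 280, 215 and 262 CPM in the HME samples (252 ± 33.3, n = 3). The model and control samples did not overlap, and the log2 fold change of 0.34 (95% interval 0.01 to 0.66, FDR 0.358 from edgeR) was below the fold threshold. The HME samples overlapped both other groups.

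Fah (ENSRNOG00000013223), the last step, was at 330, 375 and 360 CPM in the control samples (355 ± 22.7, n = 3), 359, 263 and 282 CPM in the model samples (301 ± 50.7, n = 3) and 311, 304 and 337 CPM in the HME samples (317 ± 17.1, n = 3). The groups overlapped in each comparison, and the log2 fold changes lay between -0.24 for model against control and 0.08 for HME against model, at an FDR of at least 0.413 from edgeR in the 3 pairwise comparisons. Gstz1, the isomerase between Hgd and Fah, lies outside the rule for naming genes and was added for its place in the pathway, after its values had been seen. It was at 469 ± 36.3, 393 ± 54.8 and 393 ± 23.0 CPM in the control, model and HME groups (n = 3 each).

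Counted over the members, none of the 7 genes other than Amdhd1 passed both thresholds (log2 fold change of 0.5 or more in either direction, FDR 0.01 or less) in the model group by edgeR, where 0.0801% of the 12486 genes tested passed. By DESeq2 1 of the 7 passed, which was Hal, where 2.05% of all genes passed. An unadjusted p under 0.05 was reached by 3 of the 7 (Hal, Tat and Hgd), against 13.2% of all genes, and the same 3 did not overlap between the groups, against 21.1% of all genes. The median log2 fold change of the 7 genes was -0.24, with 3 higher and 4 lower, and that of all genes was 0.00.

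In the HME group against control, 0 of the 7 passed by edgeR (1.48% of 12633 genes passed) and 0 by DESeq2 (6.09%), 2 of the 7 (Hal and Tat) had an unadjusted p under 0.05 (24.3% of all genes), and 1 of the 7, Hal, did not overlap (30.2% of all genes). Their median log2 fold change was -0.03. In the HME group against model, 0 of the 8 passed by edgeR (0.136% of 12502 genes passed) and 0 by DESeq2 (1.18%), and 0 passed at an FDR of 0.05 (0.456%). In that contrast 0 of the 8 had an unadjusted p under 0.05 (8.02% of all genes), and 1 of the 8, Uroc1, did not overlap (14% of all genes). The 8 log2 fold changes lay between -0.16 and 0.35. With the model and HME samples joined against the control samples in a fit of all 9 libraries, 0 of the 7 passed by edgeR (0.69% of 12897 genes passed) and 0 by DESeq2 (4.1%), with Hal at a log2 fold change of 0.58 (95% interval 0.21 to 0.95, FDR 0.0836 from edgeR) and Tat at -0.62 (95% interval -1.20 to -0.05, FDR 0.216). Of the 7, 2 had an unadjusted p under 0.05 there (19.7% of all genes) and 1, Hal, did not overlap (11.8% of all genes).

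**Figure D2:**
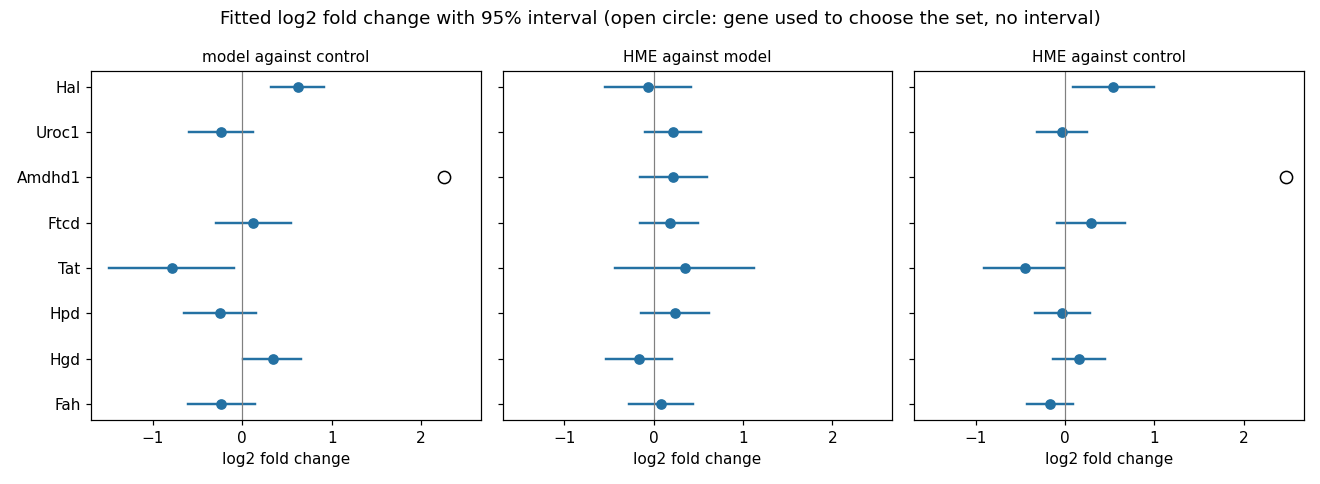
Fitted log2 fold change of the 8 genes in the 3 pairwise comparisons, with the 95% interval from the edgeR fit (lines). Amdhd1 is an open circle without an interval, at 2.26 and 2.47, in the contrasts that led to its choice, and the other genes lie between -0.79 (Tat in the model group) and 0.62 (Hal in the model group).

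The counts of successive enzymes were also set against each other within each library, which needs no scaling between libraries. These 6 ratios were computed after the levels had been seen and are given without a test. They depend on gene length, so they are compared between samples and not between enzymes. The ratio of Uroc1 to Hal was between 2.65 and 2.91 in the control samples, 1.38 and 1.72 in the model samples and 1.42 and 2.5 in the HME samples, and every fructose-group sample was below every control sample. For Amdhd1 to Uroc1 the ranges were 0.0583 to 0.0943, 0.378 to 0.482 and 0.370 to 0.519, and for Ftcd to Amdhd1 they were 9.67 to 17.2, 2.47 to 2.98 and 2.43 to 2.92. Both of these ratios contain the Amdhd1 values that led to its choice.

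In the tyrosine pathway, the ratio of Hgd to Hpd was 0.157, 0.134 and 0.121 in the control samples, 0.207, 0.215 and 0.193 in the model samples and 0.161, 0.145 and 0.157 in the HME samples. The model samples stood above all other samples, and the HME samples overlapped the control samples. The ratio of Fah to Hgd was between 1.45 and 1.67 in the control samples, 0.979 and 1.14 in the model samples and 1.11 and 1.41 in the HME samples, so that all control samples were above all fructose-group samples. The ratio of Hpd to Tat overlapped between the groups and reached 5.84 in model replicate 3, the sample with the lowest Tat.

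**Figure D3:**
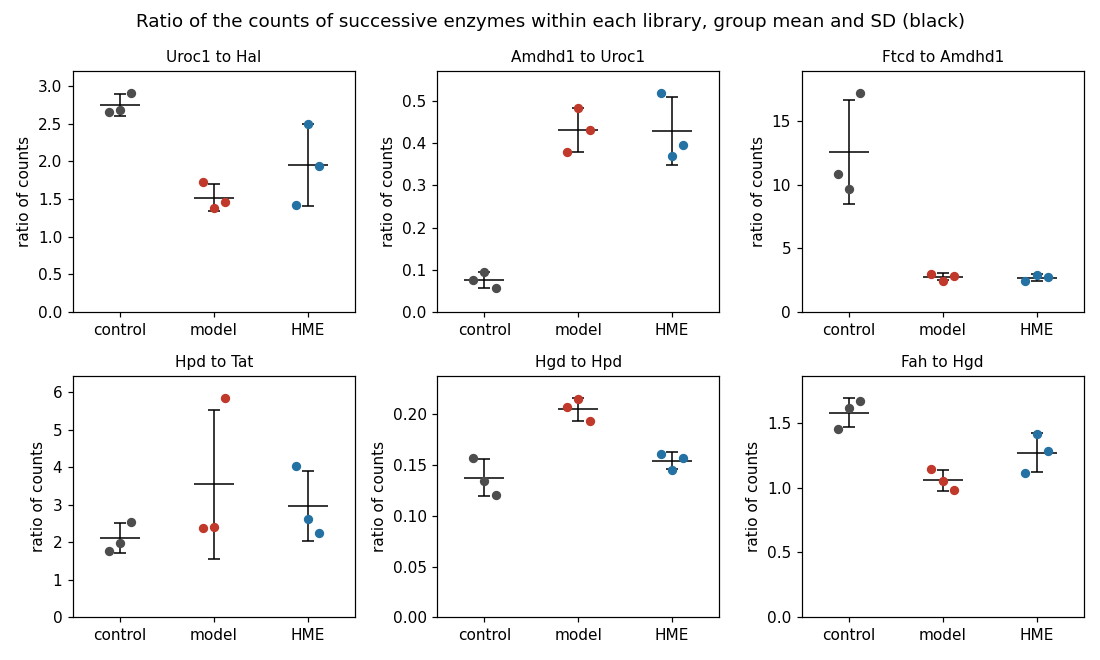
Ratio of the counts of successive enzymes within each library (points, 3 samples per group), with the group mean and SD in black. For Hgd to Hpd the 3 model samples lie between 0.193 and 0.215 and the other 6 samples between 0.121 and 0.161.

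Among the other genes around histidine, 10 of 12 listed genes were tested in the model group, and none reached an FDR of 0.05 together with a log2 fold change of 0.5 or more in either direction, a rule that 0.601% of all genes met. By DESeq2 at an FDR of 0.01 the count was also 0 (2.05% of all genes), and 3 had an unadjusted p under 0.05 (13.2% of all genes). In the HME group against control 2 of 11 met it, against 6.36% of all genes. Shmt1, the cytosolic enzyme that moves carbon between serine, glycine and folate, was at 115, 105 and 118 CPM in the control samples, 147, 184 and 150 CPM in the model samples and 169, 167 and 186 CPM in the HME samples. All fructose-group samples were above all control samples, by a log2 fold change of 0.51 for the model samples (FDR 0.159 from edgeR) and 0.63 for the HME samples (FDR 0.012). Cndp2, a cytosolic dipeptidase, averaged 93.5 ± 10, 102 ± 20.7 and 57.2 ± 9.48 CPM in control, model and HME samples (n = 3 each). Its log2 fold change was -0.71 for HME against control (FDR 0.0211 from edgeR) and -0.82 against model (FDR 0.202), and all HME samples were below all other samples. The medians of the list were -0.01 for model against control and 0.21 for HME against control.

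Among the other genes of phenylalanine and tyrosine metabolism, 13 of 14 listed genes were tested. By edgeR 0 met that rule in the model group (0.601% of all genes) and 1 did for HME against control (6.36% of all genes). In the model group 3 of the 13 had an unadjusted p under 0.05 (13.2% of all genes), and DESeq2 called 1 at an FDR of 0.01 (2.05% of all genes). For HME against control 5 of the 13 had an unadjusted p under 0.05 (24.3% of all genes), and DESeq2 called 2 (6.09% of all genes). Dnajc12, a co-chaperone of the DnaJ family, was the edgeR call for HME samples and the DESeq2 call for model samples. It was at 21.0, 20.9 and 17.3 CPM in the control samples, 38.0, 30.0 and 33.5 CPM in the model samples and 42.5, 31.9 and 40.1 CPM in the HME samples. Every fructose-group sample was above every control sample, and the log2 fold change was 0.78 for the model samples (FDR 0.0844 from edgeR) and 0.95 for the HME samples (FDR 0.00664), which also passes the threshold of 0.01. Between the HME and model groups it was 0.18 (FDR 0.857 from edgeR). The medians of the list were 0.08 and 0.04.

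Of 9 amino acid carriers listed for histidine and tyrosine 8 were tested, and 1 met the rule in the model group, against 0.601% of all genes. Whether each of them carries histidine or tyrosine in these livers was not tested. DESeq2 at an FDR of 0.01 also called 1 there (2.05% of all genes), and 1 had an unadjusted p under 0.05 (13.2% of all genes). For HME against control 0 met the rule (6.36% of all genes). The gene in the model group was each time Slc43a1, a carrier of large neutral amino acids. It was at 30.9, 36.9 and 34.1 CPM in the control samples, 16.2, 17.1 and 12.1 CPM in the model samples and 31.0, 21.4 and 21.4 CPM in the HME samples. All model samples were below all other samples. Slc43a1 fell by 1.17 on the log2 scale in the model samples (standard error 0.17, FDR 0.0299 from edgeR). Its log2 fold change was 0.71 for HME against model (FDR 0.384) and -0.47 against control (FDR 0.111). The medians of the list were -0.01 and -0.05.

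Of 17 tested enzymes that break down other amino acids, 0 met the rule in the model group by edgeR, where 8 had an unadjusted p under 0.05 (13.2% of all genes) and DESeq2 called 4 at an FDR of 0.01 (2.05% of all genes). For HME against control 4 met it, 3 higher and 1 lower, against 6.36% of all genes. Agxt, which transaminates glyoxylate with alanine, averaged 50.2 ± 1.56, 92.4 ± 21.2 and 90.2 ± 9.40 CPM in control, model and HME samples. Its log2 fold changes against control were 0.88 for model (FDR 0.0888 from edgeR) and 0.84 for HME samples (FDR 0.00359). Cdo1 and Cth, both of cysteine metabolism, had log2 fold changes of 0.77 (FDR 0.0283 from edgeR) and 1.02 (FDR 0.0439) for HME against control. Aass, the first enzyme of lysine breakdown, was at 271 ± 21.9, 170 ± 54.7 and 146 ± 25.6 CPM, with a log2 fold change of -0.90 for HME against control (FDR 0.00924 from edgeR). When both fructose groups were joined, 2 higher and 3 lower of the 17 met the rule, against 3.84% of all genes. The higher ones were Agxt at 0.86 (FDR 0.0124 from edgeR) and Cdo1 at 0.68 (FDR 0.0339). The lower ones were Gls2 (liver glutaminase) at -0.62 (FDR 0.0276 from edgeR), Oat (ornithine aminotransferase) at -1.26 (FDR 0.0347) and Aass at -0.78 (FDR 0.0385). The medians of the list were -0.10 for model against control and -0.04 for HME against control.

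Hepatocytes near the portal vein and near the central vein express different enzymes, and marker levels of both zones were taken beside these results. Of 7 periportal markers, 4 did not overlap between the model and control samples, all of them lower in the model. Of all genes 21.1% did not overlap, in either direction. DESeq2 at an FDR of 0.01 called 4 of the 7, all lower (2.05% of all genes). An unadjusted p under 0.05 from edgeR was reached by 4 of the 7 (13.2% of all genes). The median log2 fold change was -0.67. In the HME group against control the median was -0.42, and Ass1, an enzyme of the urea cycle, met the rule at -0.84 (FDR 0.0202 from edgeR). The groups did not overlap for 3 of the 7, 1 higher and 2 lower in HME samples (30.2% of all genes did not overlap). The higher one was Pck1, the gluconeogenic enzyme, which is outside the rule for naming genes and was named after its values had been seen. It averaged 811 ± 163, 1502 ± 803 and 2791 ± 1324 CPM in control, model and HME samples (n = 3 each). Its log2 fold change was 0.89 for model against control (FDR 0.419 from edgeR) and 1.78 for HME against control (FDR 0.0613 from edgeR, 8.32e-07 from DESeq2). Of 9 pericentral markers, 2 were higher and 2 lower without overlap in the model group (21.1% of all genes did not overlap). DESeq2 called 2 of the 9 there, both lower (2.05% of all genes). An unadjusted p under 0.05 from edgeR was reached by 5 (13.2% of all genes), and the median was -0.16. For HME against control 1 of 8 was higher and 1 lower without overlap (30.2% of all genes did not overlap), with a median of -0.34. Gls2 is on the periportal list as well and Oat on the pericentral one. Whether these zone markers bear on the values of the 8 genes was not tested.

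**Figure D4:**
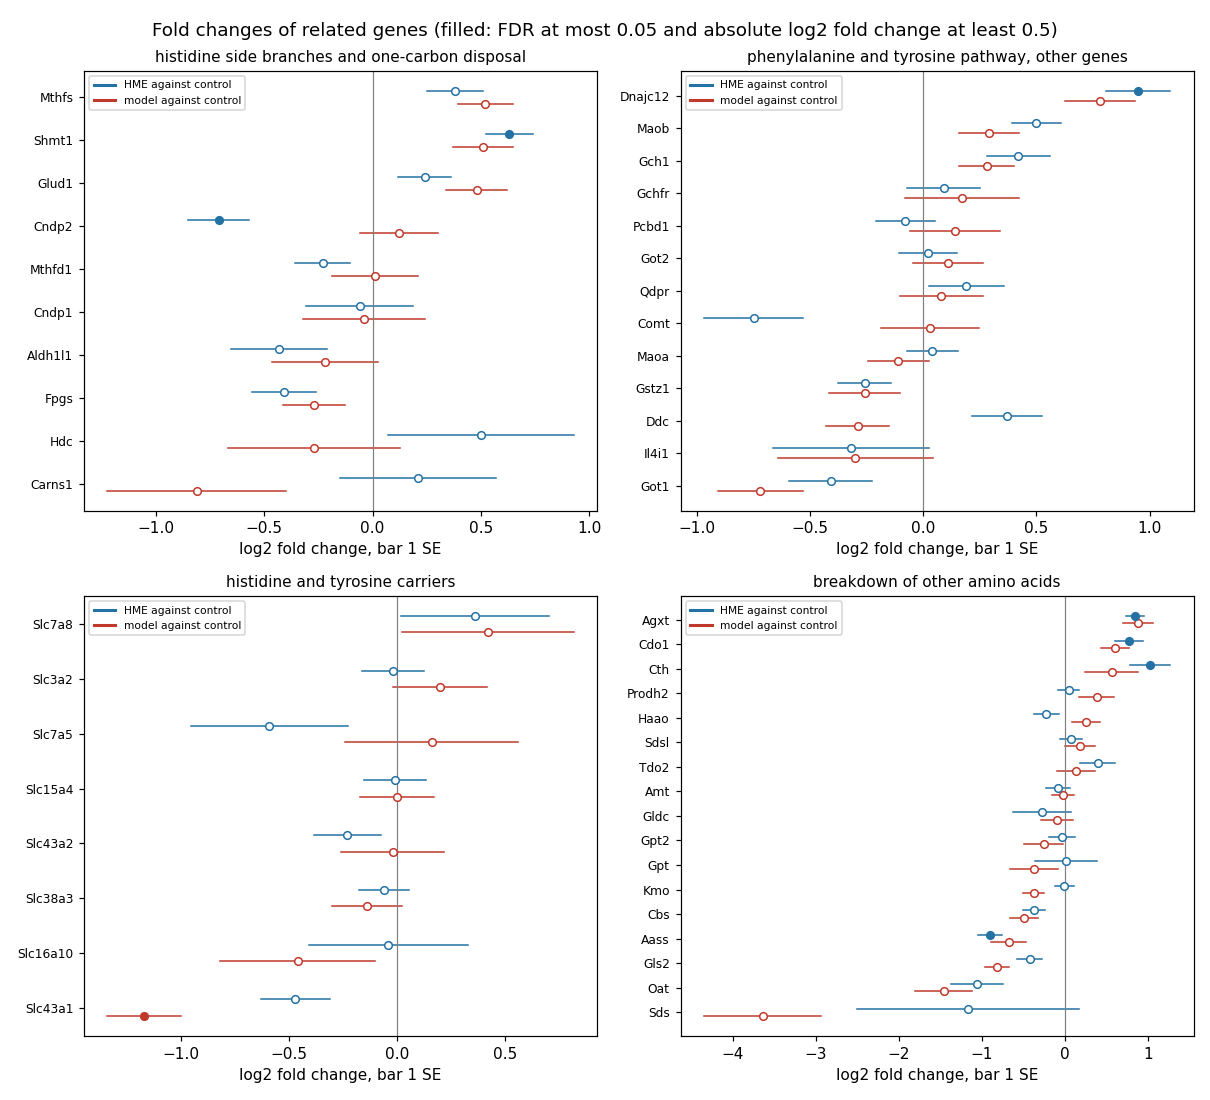
Log2 fold change against control of related genes in the model group (red) and the HME group (blue), with bars of 1 standard error and filled circles where both thresholds (FDR 0.05, log2 fold change 0.5 in size) were met. Shmt1, Dnajc12, Agxt, Cdo1 and Cth are filled on the higher side and Cndp2, Aass and Slc43a1 on the lower side.

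The genes whose pattern over the 9 libraries was most like that of Amdhd1 were sought among 10101 genes with a mean count of at least 50, by Pearson's correlation of log2 CPM, as a description that the difference between the control and fructose samples dominates. They were Gk (r = 0.988), Galt (0.979), Tymp (0.976), Mapk3 (0.974) and Psen2 (0.973). Gk, glycerol kinase, was at 114 ± 16.5, 583 ± 63.3 and 647 ± 9.02 CPM in the control, model and HME groups (n = 3 each). Galt, an enzyme of galactose breakdown, was at 13.3 ± 1.86, 33.8 ± 5.49 and 36.6 ± 3.01 CPM, and Tymp, thymidine phosphorylase, was at 142 ± 21.2, 431 ± 45.3 and 402 ± 29.1 CPM. No other gene of histidine or tyrosine breakdown was among these 5, which are only the top of the ranking. Over the same 9 libraries, r with Amdhd1 was 0.83 for Hal, 0.64 for Hgd and 0.56 for Ftcd. It was -0.28 for Hpd, -0.32 for Uroc1, -0.55 for Fah and -0.59 for Tat, also with no test.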

How the data were processed

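Per the labels and the methods of the study, poly(A) RNA of 9 rat liver samples was sequenced on an Illumina platform, reads were aligned with HISAT2 and counted on exons without regard to strand with HTSeq 0.6.1, and the submitters' processing notes name the build Rnor_6.0. The authors deposited raw counts per gene, without normalization. Where genes overlap on opposite strands, the strand was not used to assign reads. A deposited table of assembled transcripts was not used. No rat genome or sequence was used here, so neither positions nor sequences are given.

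Models were fitted in edgeR 4.0.16 under R 4.3.3, with 6 libraries for a pairwise comparison and 9 for both fructose groups joined, with filterByExpr, TMM, robust glmQLFit, glmQLFTest and Benjamini-Hochberg adjustment (FDR) over all genes tested. The thresholds (log2 fold change of 0.5 or more in size, FDR 0.01 or less) are those of the study. The study applied them with other tests, DEGseq and DESeq, so its numbers of genes passed need not match those given here. Intervals are 95% intervals of the fit. DESeq2 1.42.0 was an alternative, and the code was tested on simulated data. An exact permutation test of 3 against 3 samples cannot give a p below 0.1. Replicate numbers paired no samples: the correlations of deviations from group means lay between -0.23 and -0.02.

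The members and lists were chosen with earlier results of these data known. Named are the 8 members, listed genes past a log2 fold change of 0.5 in size at an FDR of 0.05 in a comparison (otherwise the 2 with the lowest p), and the 5 genes most like Amdhd1. Hnmt, Prodh and Nr3c1 were on the lists and not matched, nor were Pecam1, Prss1, Pnlip and Lct among the cell type markers. The intestine markers summed to 0.2 to 1.32 CPM in every library. Alternatives were another test, scaling, filter, threshold, a replicate block and single samples left out. A gene of the phenylalanine and tyrosine list is not reported here and was left out of that list's counts and plot.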

Additional observations from a re-analysis of the deposited data

How the results depend on the processing

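The alternatives were DESeq2, its size factors, library size alone, no filter, 10 or more counts in each library, a joint fit of the 9 libraries, the replicate number as a block, a looser FDR of 0.05, no minimum fold change and single samples left out. The number of members past both thresholds (0 in each comparison, Amdhd1 against control left aside) was 1 in the model group with DESeq2 (Hal) and 0 in every other run, 0 to 0 with single samples left out. With the replicate block, which paired no samples, it was also 0, and 0, 7, 104 and 27 of all genes passed in the model group, HME against model, HME against control and both fructose groups together, against 10, 17, 187 and 89 without it. Of 496 log2 fold changes of single members, 487 kept their direction and their side of the thresholds. The exceptions beside Hal were 8 turned signs of values near 0, and the cause was not tested. In the model group Ftcd was at -0.02 with library size alone, which moved the median of all genes by -0.146, and at -0.03 without control replicate 1 (range -0.03 to 0.28 with single samples left out). Between the HME and model groups, Hal was at 0.11 without HME replicate 2 (range -0.33 to 0.11) and Fah at -0.01 without model replicate 2 (range -0.01 to 0.23). Between the HME and control groups, Uroc1 was at 0.05 without control replicate 3 (range -0.12 to 0.05), and Hpd was at 0.02, 0.03 and 0.04 without control replicate 2, control replicate 3 and HME replicate 2 (range -0.11 to 0.04). Amdhd1 lay between 2.12 and 2.47 for model against control and between 2.30 and 2.69 for HME against control. The members had at least 360 counts in every library. How far counting noise and the spread between samples each limit these values was not tested.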

Other observations

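Of 14 regulators of amino acid breakdown on the list, 13 were matched and tested, and none reached an FDR of 0.05 with a log2 fold change of 0.5 or more in size in any comparison by edgeR, while DESeq2 at an FDR of 0.01 called 1, Onecut1, in the model group (2.05% of all genes), where 4 had an unadjusted p under 0.05 (13.2% of all genes). The list's median log2 fold change was 0.13 for model and -0.05 for HME samples against control. The 2 genes with the lowest p were Onecut1, a hepatocyte transcription factor, and Insr, the insulin receptor. Onecut1 averaged 18.2 ± 12.1, 3.17 ± 1.40 and 29.2 ± 23.0 CPM in control, model and HME samples (n = 3 each), with log2 fold changes of -2.54 for model against control (FDR 0.117 from edgeR) and 3.23 for HME against model (FDR 0.254). For Onecut1 the model samples (1.58, 3.67 and 4.26 CPM) lay below the control samples (17.1, 6.57 and 30.8 CPM). The HME samples were split, at 33.8, 49.5 and 4.24 CPM. HME replicates 1 and 2 lay above all control samples, while replicate 3 lay below them and within the range of the model samples. Insr was at 71.9 ± 1.98, 82.7 ± 30.1 and 93.8 ± 13.4 CPM, with a log2 fold change of 0.38 for HME against control (FDR 0.0844 from edgeR).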
